A study of Mus musculus with 6 samples.

Results

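Sertoli cells are the somatic cells of the seminiferous tubule that surround and feed the developing germ cells. The genes described here are 10 that mark these cells or carry their signals, *Sox9*, *Wt1*, *Fshr*, *Cldn11*, *Dhh*, *Rhox5*, *Inha*, *Inhbb*, *Kitl* and *Trf*, taken as every array probe whose gene name is one of these symbols. They are 10 of the 27376 gene names on the array and have 15 probes in 42 spots per array. Total testis RNA of 3 *Prss55*-/- mice (Prss55KO in the labels, made by homologous recombination in the whole animal) and 3 wt mice was hybridized in a single dye, 1 array per mouse. All 6 males were 6 to 8 weeks old and of the mixed 129Sv/C57BL/6 strain. *Prss55* encodes a serine protease of germ cells, and the study asked which testis transcripts differ when it is disrupted. The 10 genes were chosen by name, with earlier results of these data known.

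SOX9 and WT1 are transcription factors that make and keep Sertoli cell fate, and RHOX5 is a homeobox factor of Sertoli cells that responds to androgen. FSHR receives follicle-stimulating hormone from the pituitary, and the Sertoli cell answers with inhibin, built from the *Inha* subunit and a beta subunit such as that of *Inhbb*, which lowers the release of this hormone. Desert hedgehog (*Dhh*) signals from Sertoli to Leydig and peritubular cells, and KIT ligand (*Kitl*) to KIT on spermatogonia. Claudin 11 (*Cldn11*) forms the strands of the blood-testis barrier, and transferrin (*Trf*) carries iron across it.

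The probes are 60-nucleotide oligonucleotides, and the ones printed here are those on which the results turn. They are from the genes with the largest differences and from those that have several probes. Each is written 5′ to 3′, whole or as a stretch of 30 bases, in lower case. Positions are those of the array files, whose header gives build mm9.
*Fshr* (chr17:89384673-89384732, minus strand): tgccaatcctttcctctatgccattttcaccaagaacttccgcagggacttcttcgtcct
*Rhox5* (no position in the array files), bases 1 to 30: tggagtgagatggggagaaagatgcccttt
*Inha*, the dimmer of its probes (chr1:75503955-75504014, plus strand): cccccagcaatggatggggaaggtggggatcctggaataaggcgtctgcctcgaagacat
*Inhbb*, brighter probe (chr1:121312083-121312142, minus strand), bases 1 to 30: cataataacttaaaaccaaagaattttccc
*Inhbb*, dimmer probe (chr1:121314417-121314476, minus strand): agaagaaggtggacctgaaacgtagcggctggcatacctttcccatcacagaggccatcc
*Kitl*, brighter probe (chr10:99562481-99562540, plus strand), bases 1 to 30: ctaaggtgactatttatgatcctagaatgt
*Kitl*, dimmer probe (chr10:99539380-99539439, plus strand): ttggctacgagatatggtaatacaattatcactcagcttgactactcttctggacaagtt
*Sox9*, brightest probe (chr11:112647008-112647067, plus strand), bases 1 to 30: ttccaggagagagactttaagactttgtct
*Sox9*, dimmest probe (chr11:112644310-112645162, plus strand): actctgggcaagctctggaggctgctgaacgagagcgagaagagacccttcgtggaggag
In *Inha*, *Inhbb* and *Kitl* the dimmer probe lies upstream of the brighter one on the gene's strand. The interval of the dimmest *Sox9* probe is 853 bases long, more than the probe itself. That probe was well above background on 1 of 6 arrays, wt replicate 3, and was not tested. The other 14 probes were well above background on all 6 arrays.
The probes of *Dhh* and *Cldn11* hold the letters AATAAA, those of the polyadenylation signal of most transcripts, in capitals here.
*Dhh* (chr15:98723465-98723524, minus strand), bases 30 to 59: atttgtggccaaAATAAAgattctagagtg
*Cldn11* (chr3:31062922-31062981, plus strand), bases 1 to 30: atatgcAATAAAtaatagtacgaagattat

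None of the 10 Sertoli cell genes was differentially expressed between *Prss55*-/- and wt testis after adjustment over all probes. The limma adjusted p was below 0.05 for 0 of the 10 genes, against 1.21% of the 28606 probes tested, and 0 of the 10 met the study's own criterion of an unadjusted p below 0.05 with at least a 2-fold change, against 0.608% of probes. Unadjusted p was below 0.05 for 5 of the 10, against 19.1% of probes. *Fshr*, *Inha*, *Dhh* and *Kitl* were the lower ones (4 of 10, against 9.29% of probes) and *Rhox5* the higher one (1 of 10, against 9.82%). The same 5 genes had an unadjusted p below 0.05 in the methods' t-test, which after adjustment left 0. The *Prss55*-/- and wt arrays did not overlap for 6 genes, against 26.3% of probes, with 5 lower in *Prss55*-/- testis, the 4 above and *Inhbb* (12.9% of probes), and 1 higher (13.4%). For *Sox9*, *Wt1*, *Cldn11* and *Trf* they overlapped.

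The differences were small and narrowly bounded. The measured log2 difference, *Prss55*-/- minus wt, was below 0 for 8 of the 10 genes, against 49.4% of probes, and above 0 for *Wt1* and *Rhox5*. Its median over the 10 was -0.16, beside 0.0019 over all tested probes. At the brightest probe of each gene the 95% interval of the difference lay within 0.44 log2 units of 0, so that a 2-fold change was outside the interval for all 10 of these probes, as it was for 95.6% of all tested probes. Of the dimmer probes, that of *Inhbb* had an interval that reached past 2-fold. An interval within 0.5 log2 units either way was found for 79.7% of probes. The SD between arrays within a genotype had a median of 0.064 over the 10 genes and 0.092 over all tested probes.

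**Figure D1:**
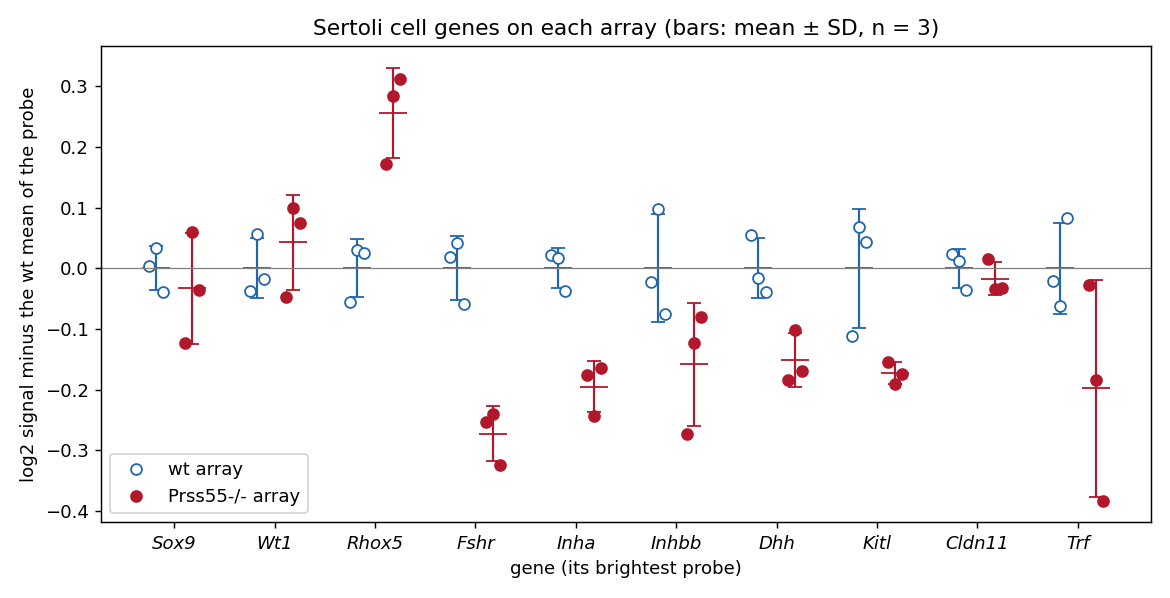
Quantile-normalized log2 signal of each Sertoli cell gene on each array, minus the wt mean of its probe, with open points for the 3 wt arrays, filled points for the 3 Prss55-/- arrays, and bars for mean ± SD. The Prss55-/- points lie below all wt points for Fshr, Inha, Inhbb, Dhh and Kitl, above them for Rhox5, and overlap them for Sox9, Wt1, Cldn11 and Trf.

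The transcription factors that define the cell differed by less than the spread between arrays. *Sox9*, whose product directs the supporting cells of the gonad to Sertoli fate, had a quantile-normalized log2 signal of 9.86, 10.04 and 9.95 on *Prss55*-/- replicates 1, 2 and 3 and of 9.99, 10.02 and 9.95 on wt replicates 1, 2 and 3. Both the highest and the lowest of the 6 values were on *Prss55*-/- arrays, so the wt values lay inside the range of the mutants. The difference was -0.03 (95% interval -0.18 to 0.12, limma adjusted p = 0.80). A second *Sox9* probe, which is spotted 10 times per array and lies further downstream (chr11:112648809-112648868), gave 9.11, 9.33 and 9.39 in *Prss55*-/- and 9.36, 9.47 and 9.27 in wt testis. Its difference of -0.09 (95% interval -0.31 to 0.13, limma adjusted p = 0.63) also rested on overlapping values, with *Prss55*-/- replicate 1 the lowest on both probes.

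*Wt1*, which acts upstream of *Sox9* upkeep, is measured by 1 probe in 10 spots (chr2:105013428-105013487, plus strand). Its log2 signal was 11.41, 11.56 and 11.53 on the *Prss55*-/- arrays and 11.42, 11.51 and 11.44 on the wt arrays. The genotypes overlapped throughout, with a difference of 0.04 (95% interval -0.10 to 0.19, limma adjusted p = 0.73). The intervals leave room for a change of at most 0.19 log2 units in either factor's main probe.

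*Rhox5* was the one gene of the 10 that lay above all wt arrays in *Prss55*-/- testis. Its log2 signal was 13.75, 13.86 and 13.89 on the *Prss55*-/- arrays and 13.52, 13.60 and 13.60 on the wt arrays. The nearest arrays of the genotypes were 0.14 log2 units apart. The mean was 119% of the wt mean, a log2 difference of 0.26 ± 0.058 (standard error, n = 3 per genotype; 95% interval 0.12 to 0.40). The unadjusted limma p was 0.00423 and the adjusted one 0.0989, which does not pass 0.05. An exact permutation test over the 6 arrays gave p = 0.1 (two-sided), which is the smallest that 3 against 3 allow and applies to all 6 genes whose genotypes did not overlap.

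*Fshr* had the largest difference among the brightest probes of the 10 as fitted here, though that of *Rhox5* was larger in size with normexp background correction (0.22 against -0.21), without *Prss55*-/- replicate 1 (0.30 against -0.28) and without wt replicate 2 (0.27 against -0.25). Its log2 signal was 8.27, 8.29 and 8.20 on the *Prss55*-/- arrays and 8.54, 8.57 and 8.47 on the wt arrays. The 3 mutants stood together and below all 3 wt arrays, with a gap of 0.18 log2 units between the genotypes. The mean was 82.8% of the wt mean, a log2 difference of -0.27 ± 0.052 (standard error, n = 3 per genotype; 95% interval -0.40 to -0.15). The unadjusted limma p was 0.00181 and the adjusted one 0.0732. The RNA came from whole testis. A changed share of Sertoli or other cells and a changed transcript level per cell thus cannot be told apart for any gene here.

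The promoter of *Fshr* is shown because an E-box, CACGTG, is known to drive this gene in Sertoli cells. The 250 bases before its RefSeq transcription start (GRCm38.p6, chr17:89200676-89200925, minus strand) hold this motif, in capitals, beginning 61 bases before the start.
*Fshr* promoter: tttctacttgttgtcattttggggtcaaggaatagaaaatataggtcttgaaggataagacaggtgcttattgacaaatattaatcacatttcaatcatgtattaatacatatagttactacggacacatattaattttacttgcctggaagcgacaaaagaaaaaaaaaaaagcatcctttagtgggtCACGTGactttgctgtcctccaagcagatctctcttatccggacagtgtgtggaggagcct
RefSeq promoter windows of 300 bases, 250 before and 50 after the start, were at hand for 7 of the 10 genes. CACGTG, which reads the same on both strands, was in the window of 1 of the 7 and in 7.15% of 32851 windows. The cAMP response element TGACGTCA, also the same on both strands, was in 0 of the 7 and in 1.79% of windows. ACAAAG, a SOX motif, was found on either strand in 0 of the 7 and in 18.7%. None of these motifs contains another, and a match is a match of letters only.

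The inhibin alpha subunit, *Inha*, was lower on both of its probes. The brighter probe gave log2 signals of 13.47, 13.41 and 13.48 in *Prss55*-/- and 13.67, 13.67 and 13.61 in wt testis. The gap between the genotypes was 0.13 log2 units, and the mean stood at 87.4% of wt (log2 difference -0.19 ± 0.048, standard error, n = 3 per genotype; 95% interval -0.31 to -0.08; limma adjusted p = 0.114). The dimmer probe gave 9.08, 9.08 and 9.15 in *Prss55*-/- and 9.38, 9.25 and 9.32 in wt testis, again with no overlap. Its difference was -0.21 (95% interval -0.34 to -0.08, limma adjusted p = 0.125). The dimmer probe's 60 bases stand, letter for letter, in the RefSeq window around the *Inha* start, which reaches to both sides of it, and the brighter probe's do not. Neither probe was placed on a transcript here, so the probes are given as separate readings and no more.

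*Inhbb*, the beta B subunit that pairs with *Inha* in inhibin B or with itself in activin B, was less clear. The brighter probe gave 11.45, 11.60 and 11.65 in *Prss55*-/- and 11.70, 11.82 and 11.65 in wt testis. The genotypes were parted by only 0.0055 log2 units, between *Prss55*-/- replicate 3 and wt replicate 3. The difference was -0.16 (95% interval -0.34 to 0.02, limma adjusted p = 0.315), and it was -0.10 without *Prss55*-/- replicate 1. The dimmer probe gave 6.17, 7.55 and 5.90 in *Prss55*-/- and 6.40, 6.42 and 6.55 in wt testis, with *Prss55*-/- replicate 2 far above the rest and the other mutants below every wt array. Its difference was 0.08 with an interval of -0.93 to 1.10 (limma adjusted p = 0.93), so the probes disagree in sign. Averaged over both probes the *Inhbb* difference was -0.04.

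The probes of *Inhba*, the other beta subunit, and of *Fst* were dim, though well above background on all 3 arrays of each genotype. *Inhba* was read at 6.05, 5.49 and 5.96 in *Prss55*-/- and 6.51, 6.24 and 6.29 in wt testis. All 3 mutants were below all wt arrays, at a difference of -0.52 (95% interval -0.91 to -0.12, limma adjusted p = 0.172), which was -0.23 with normexp background correction and -0.34 without *Prss55*-/- replicate 2. Follistatin (*Fst*), which binds activin, was at 5.92, 5.88 and 5.73 in *Prss55*-/- and 5.75, 5.58 and 5.73 in wt testis, with overlap and a difference of 0.16 (limma adjusted p = 0.327), which was 0.26 under 75th percentile scaling, 0.057 with normexp and 0.10 without wt replicate 2. Of the 12 activin and inhibin partners listed (*Inhba*, receptors, binding proteins and SMADs), 11 were tested and 0 passed the adjusted threshold. Unadjusted p was below 0.05 for 2 of the 11, against 19.1% of all tested probes. These were *Inhba*, which was lower, and the receptor *Acvr2b*, which was higher by 0.23. The median over the 11 was -0.04. Among 10 genes of FSH and androgen signalling, 0 passed the adjusted p, and the median was -0.03. Here too the unadjusted p was below 0.05 for 2, against 19.1% of all tested probes. These were *Gnas*, the stimulatory G protein behind FSHR (-0.13), and the phosphodiesterase *Pde4b* (0.15).

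**Figure D2:**
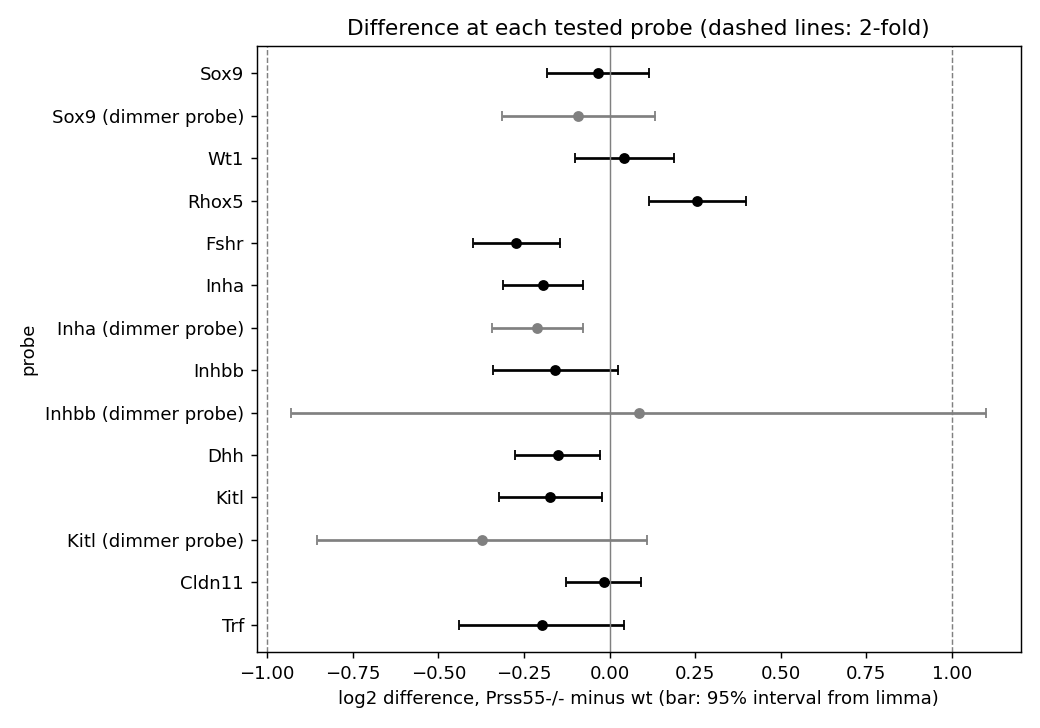
Log2 difference between Prss55-/- and wt testis at each of the 14 tested probes, with the 95% interval from limma (3 arrays per genotype), black for the probe that stands for a gene and grey for its other probes, and dashed lines at 2-fold. The intervals of Fshr, both Inha probes, Dhh and the brighter Kitl probe lie below 0 and that of Rhox5 above it, and the dimmer Inhbb probe has the widest one.

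The ligands sent to other cells of the testis were both lower by a small margin. *Dhh* had log2 signals of 12.02, 12.11 and 12.04 in *Prss55*-/- and 12.26, 12.19 and 12.17 in wt testis. The nearest arrays of the genotypes were 0.061 log2 units apart. The mean was 90.0% of wt (log2 difference -0.15 ± 0.051, standard error, n = 3 per genotype; 95% interval -0.28 to -0.03; limma adjusted p = 0.195). Of its receptors, *Ptch1* is also a target that rises when the pathway is active. Its dim probe was at 5.73, 5.83 and 5.79 in *Prss55*-/- and 5.83, 5.82 and 5.80 in wt testis. These values overlapped, at a difference of -0.03 (limma adjusted p = 0.73), which was 0.059 under 75th percentile scaling. *Gli1*, the most direct readout of hedgehog signalling, was well above background on 0 of 6 arrays and gave no test. In all, 10 of 15 listed hedgehog genes were tested. 0 passed the adjusted p, and the median was -0.05. Unadjusted p was below 0.05 for 1 of the 10, against 19.1% of all tested probes. This was *Disp1*, which releases the ligand (0.14 higher).

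*Kitl* was read by 10 spots of its brighter probe at 9.06, 9.02 and 9.04 in *Prss55*-/- and 9.10, 9.28 and 9.25 in wt testis. The mutants were alike (SD 0.018), and wt replicate 1 lay 0.042 log2 units above the highest of them. The mean was 88.7% of wt (log2 difference -0.17 ± 0.062, standard error, n = 3 per genotype; 95% interval -0.32 to -0.02; limma adjusted p = 0.213). The dimmer probe gave 6.50, 6.44 and 5.82 in *Prss55*-/- and 6.73, 6.73 and 6.42 in wt testis, with overlap at wt replicate 3 and a difference of -0.37 (95% interval -0.86 to 0.11, limma adjusted p = 0.362). Both probes were lower, the second with a spread too wide to tell. The receptor *Kit* on germ cells was at 10.08, 10.10 and 10.29 in *Prss55*-/- and 10.18, 10.27 and 10.05 in wt testis. The genotypes overlapped, at a difference of -0.01 (limma adjusted p = 0.95) whose sign turned under 75th percentile scaling (0.0040). Of 6 genes of KIT signalling, 5 were tested and 0 had an unadjusted p below 0.05 in limma, against 19.1% of all tested probes.

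The 10 spots per array of 1 *Sox9*, 1 *Wt1* and 1 *Kitl* probe show how well a single array measures these transcripts. The SD between spots of an array, in log2 units of the processed signal, was 0.027 to 0.072 for *Sox9*, 0.025 to 0.057 for *Wt1* and 0.032 to 0.067 for *Kitl*. This is the error of reading 1 array and leaves out the spread between mice. Before normalization between arrays the spot medians of the genotypes overlapped for all of the 3 probes.

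**Figure D3:**
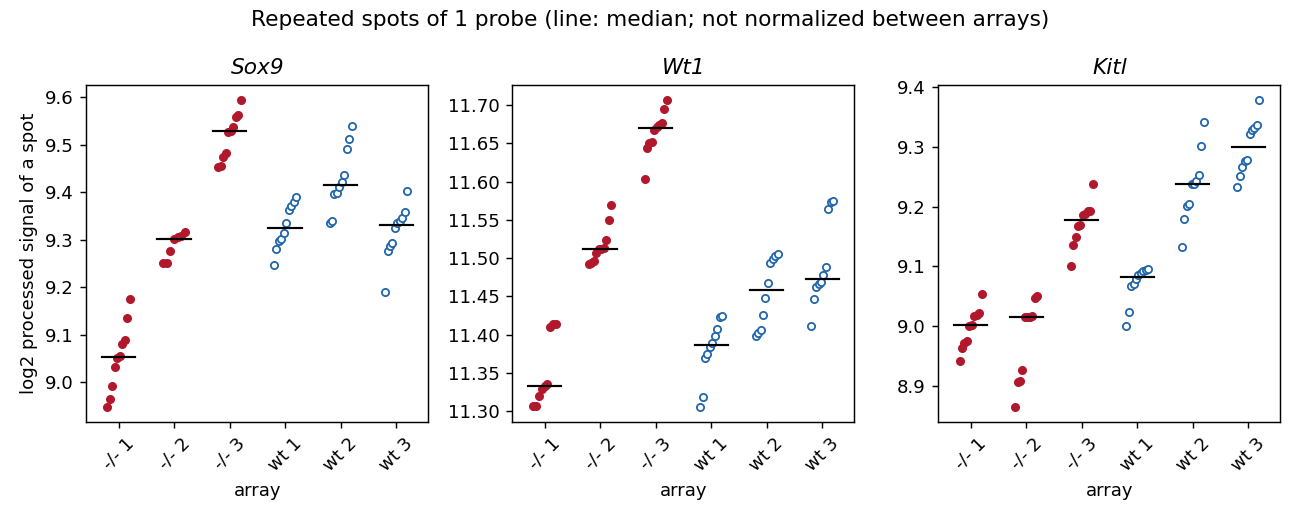
Processed signal, as log2 and before normalization between arrays, of every kept spot of the Sox9, Wt1 and Kitl probes that are spotted 10 times, with 1 column of points per array ordered by value, filled for Prss55-/- and open for wt, and a line at the median. Spots of an array agree to within an SD of 0.072, and the medians of Sox9 and Wt1 range more widely among the Prss55-/- arrays than among the wt arrays.

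For *Cldn11*, of the barrier, and *Trf*, of iron supply, the genotypes overlapped. *Cldn11*, without which the blood-testis barrier does not form, gave 13.34, 13.29 and 13.29 in *Prss55*-/- and 13.35, 13.34 and 13.29 in wt testis. All 6 values lay between 13.29 and 13.35, and the difference of -0.02 had the narrowest interval of the 10 genes, -0.13 to 0.09 (limma adjusted p = 0.863). Among 15 genes of tight and other cell junctions 14 were tested and 0 passed the adjusted p. Unadjusted p was below 0.05 for 3 (1 lower and 2 higher), against 19.1% of all tested probes. The 3 include the cadherin *Cdh2* (0.62 higher) and occludin, *Ocln* (-0.57). The scaffold *Tjp1* differed by -0.09 (limma adjusted p = 0.77). The median of the 14 was 0.02.

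*Trf* gave 9.02, 8.86 and 8.67 in *Prss55*-/- and 9.03, 8.99 and 9.13 in wt testis. *Prss55*-/- replicate 1 stood with the wt arrays, and replicates 2 and 3 lay below them. The difference was -0.20 (95% interval -0.44 to 0.04, limma adjusted p = 0.337), and it was -0.28 without *Prss55*-/- replicate 1 and -0.11 (adjusted p = 0.615) without *Prss55*-/- replicate 3. Its probe is shown because it is the only one for this gene and its interval, at 616 bases, is longer than the probe (chr9:103117569-103118184, minus strand).
*Trf*: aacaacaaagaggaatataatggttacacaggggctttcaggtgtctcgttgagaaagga
The transferrin receptor *Tfrc*, by which germ cells take up the iron, was at 9.01, 8.98 and 8.96 in *Prss55*-/- and 9.02, 8.96 and 8.94 in wt testis. These values overlapped, and the difference was 0.01 (limma adjusted p = 0.92; -0.0085 under cyclic loess). Of 11 iron-handling genes, 10 were tested and 0 passed the adjusted p. Of the 10, 3 had an unadjusted p below 0.05 (2 lower and 1 higher), against 19.1% of all tested probes. In 3 of the 10 the *Prss55*-/- arrays lay below all wt arrays, against 12.9% of probes. The iron transporter *Slc11a2* was at 10.44 on *Prss55*-/- replicate 1 and at 9.26 and 9.35 on replicates 2 and 3, against 10.50, 10.50 and 10.48 in wt testis. Replicate 1 was near the wt level and the other mutants over 1 log2 unit below it, and the difference was -0.81 (limma adjusted p = 0.235; without replicate 1, -1.19 with an adjusted p of 0.00156).

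On a scale relative to the mean of *Sox9* and *Wt1* on the same array, chosen after the values were seen, every difference shifts by the same small amount by construction. On it the genotypes of *Fshr*, *Rhox5*, *Inha*, *Dhh* and *Inhbb* did not overlap, and those of *Kitl*, *Trf* and *Cldn11* did. Counted by array, 3, 3 and 2 of the 10 genes lay above their own 6-array mean on *Prss55*-/- replicates 1, 2 and 3, and 7, 9 and 6 on wt replicates 1, 2 and 3.

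Over other genes of Sertoli cells the median difference was -0.01. Of 30 further Sertoli cell genes 28 were tested, and 0 passed the adjusted p. Of the 28, 6 had an unadjusted p below 0.05, against 19.1% of all tested probes. *Shbg*, *Drd4*, *Tubb3* and *Mro* were the lower ones, at -0.25 to -0.17, and *Cdh2* and *Dmrt1* the higher ones, at 0.62 and 0.35. The summed signal of the list, the log2 of its added linear signals, was 18.45 to 18.51 in *Prss55*-/- and 18.44 to 18.53 in wt testis, and that of the 10 genes was 15.53 to 15.59 and 15.55 to 15.60. Both ranges overlapped between the genotypes, though in such a sum the brightest probes weigh most.

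Among the further Sertoli cell genes named by rule, *Clu*, a secreted chaperone, was at 16.44, 16.44 and 16.46 in *Prss55*-/- and 16.45, 16.57 and 16.52 in wt testis (difference -0.07, limma adjusted p = 0.49). *Gata4*, a transcription factor of gonadal somatic cells, differed by 0.10 (limma adjusted p = 0.65) and *Gdnf*, which maintains spermatogonial stem cells, by -0.05 (limma adjusted p = 0.86; 0.068 under 75th percentile scaling). *Amh*, which the adult Sertoli cell has largely switched off, was well above background on 2 of 3 arrays of each genotype and was not tested. By the rule of the smallest root mean square distance over the 6 centred arrays, the further Sertoli cell genes nearest to the mean profile of the 10 were *Clu* (0.031 log2 units), *Defb36*, a beta-defensin (0.038), and *Sox8*, a relative of *Sox9* (0.053). *Defb36* differed by -0.04 and *Sox8* by -0.03, with adjusted limma p of 0.73 and 0.80, and the genotypes overlapped for all of the 3. The distance is not scaled, and the mean profile itself runs only from -0.060 to 0.073, so a flat probe also lies near.

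A LIM homeobox factor of the early gonad, *Lhx9*, was the only gene of the 17 lists compared, with 143 tested genes, past the adjusted threshold. Of all tested probes 1.21% were past it. *Lhx9* was at 8.99, 9.10 and 9.12 in *Prss55*-/- and 9.59, 9.46 and 9.46 in wt testis. The genotypes lay 0.34 log2 units apart, and the difference was -0.44 (95% interval -0.59 to -0.28, limma adjusted p = 0.0402). With 1 array left out the adjusted p was between 0.0484 and 0.151, and it was under 0.05 only without *Prss55*-/- replicate 1. Of the 10 gonadal transcription factors, 3 had an unadjusted p below 0.05, against 19.1% of all tested probes. Besides *Lhx9* these were *Dmrt1* and *Cbx2*, both higher, and the median of the 10 was -0.04.

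**Figure D4:**
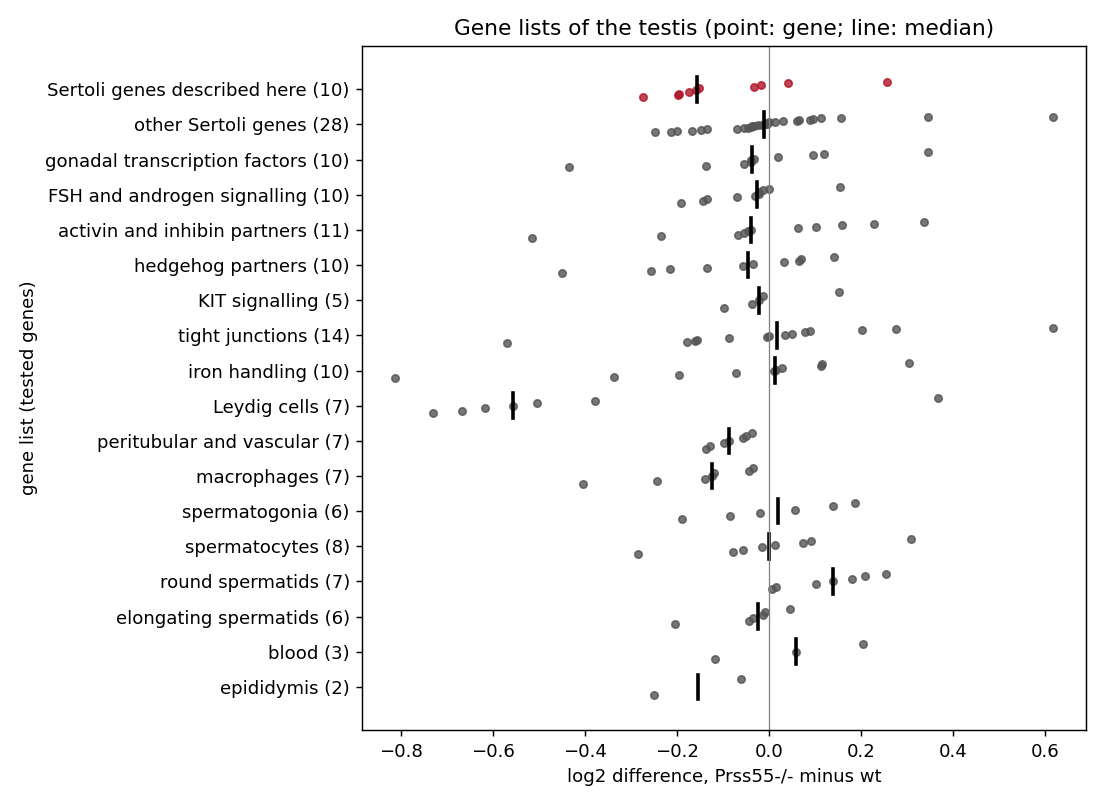
Log2 difference between Prss55-/- and wt testis for every tested gene of the 10 Sertoli cell genes and of 17 further lists, 1 point per gene, with the number of genes in brackets and a line at the median. The Leydig cell list has the lowest median, -0.56, the 10 Sertoli cell genes have -0.16, and the other Sertoli cell genes -0.01.

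Markers of other testis cells also differed in places, and their part in the results was not tested. Of 8 Leydig cell genes 7 were on the array and tested, and 6 were lower in *Prss55*-/- testis, with a median of -0.56. Unadjusted p was below 0.05 for 3 of the 7, *Hsd3b1*, *Cyp17a1* and *Hsd17b3*, against 19.1% of all tested probes, and 0 passed the adjusted p. The summed signal of the list was 15.09 to 15.71 in *Prss55*-/- and 15.71 to 15.91 in wt testis. The Leydig cell genes were uneven among the mutants. Their median against the wt mean was -0.04 on *Prss55*-/- replicate 1, -0.89 on replicate 2 and -0.56 on replicate 3, while that of the 10 Sertoli cell genes was -0.14, -0.11 and -0.12. Among the *Prss55*-/- arrays, replicate 1 was the lowest for *Sox9*, *Wt1*, *Rhox5*, *Inhbb* and *Dhh* (12.02, against 12.04 on replicate 3). It was the highest for *Cldn11*, *Kitl* and *Trf* and between the others for *Fshr* and *Inha*.

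Macrophage genes were lower in 7 of 7 (median -0.12, summed signal 13.69 to 14.06 against 13.79 to 14.18), as were peritubular and vascular genes (7 of 7, median -0.09, summed signal 14.44 to 14.67 against 14.64 to 14.68). Round spermatid genes were higher in 7 of 7 (median 0.14, summed signal 17.55 to 17.68 against 17.44 to 17.51). Of these, 4 (*Acrv1*, *Spaca1*, *Acr* and *Crem*) had an unadjusted p below 0.05, against 19.1% of all tested probes. Medians were 0.02 over 6 spermatogonial genes, 0.00 over 8 spermatocyte genes, -0.02 over 6 elongating spermatid genes, 0.06 over 3 blood genes and -0.15 over 2 epididymal genes. No list but that with *Lhx9* had a gene past the adjusted p. Genes of the lists named for an unadjusted p below 0.05, and *Slc11a2*, were singled out after their values were seen.

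The targeted gene and the slides bear on all of these values. *Prss55* itself was read at 15.08, 14.95 and 14.93 on the *Prss55*-/- arrays and at 15.87, 15.77 and 16.01 on the wt arrays, a difference of -0.90 (limma adjusted p = 0.010). At this probe the mutants thus kept 53.6% of the wt signal, well above background on all 3 arrays. Whether the probe lies in the deleted part was not settled here. The study reported PRSS55 RNA and protein to be absent from the mutants, by RT-PCR, Western blotting and immunofluorescence. Between 69.6% and 72.9% of spots were well above background on the *Prss55*-/- arrays and 69.5% to 71.4% on the wt arrays, with 0 saturated, and arrays correlated at 0.992 or more. The *Prss55*-/- arrays shared slide 1, while wt replicates 1 and 2 were on slide 2 and wt replicate 3 on slide 3. So no value within a slide can be given, and slide and genotype cannot be told apart. The split of the wt arrays compares the wt slides only. Between the wt slides, replicate 3 minus the mean of replicates 1 and 2, the 10 genes differed by -0.11 (*Inhbb*) to 0.12 (*Trf*), and by -0.09 for *Fshr*, 0.04 for *Rhox5* and -0.06 for *Inha*. With slide as a random block, which does not part slide 1 from genotype, the limma adjusted p was 0.0878 for *Fshr* and 0.118 for *Rhox5*.

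*Fshr*, *Rhox5* and *Inha* held an unadjusted p below 0.05 under all 15 alternative settings, by limma or, in 1 of them, by the methods' t-test, and *Dhh* and *Kitl* did not. With 1 array left out, the log2 difference was -0.30 to -0.25 for *Fshr*. The difference of *Sox9* turned to 0.012 without *Prss55*-/- replicate 1 and to 0.0041 with normexp background correction. No other gene of the 10 changed sign under the alternatives, and 0 of the 10 passed the adjusted p in any.

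**Figure D5:**
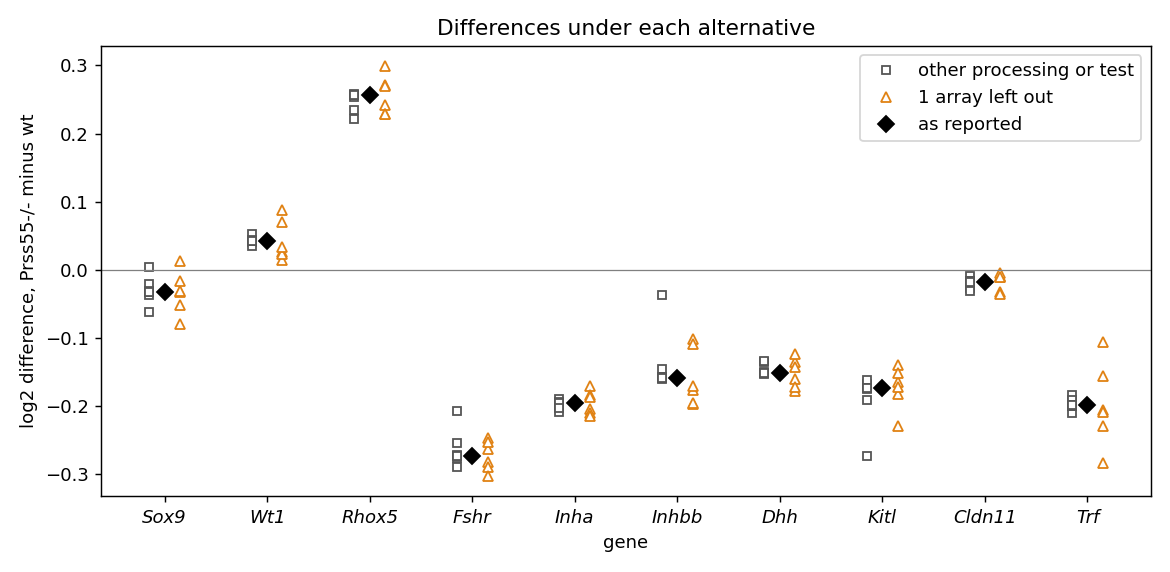
Log2 difference between Prss55-/- and wt testis for each Sertoli cell gene as reported (diamond), under other processing or tests (squares) and with 1 array left out (triangles). Fshr stays between -0.30 and -0.21 and Rhox5 between 0.22 and 0.30, Sox9 straddles 0, and the square of Inhbb at -0.04 is the mean over both of its probes.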

How the data were processed

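RNA from whole testes was labelled with Cy3 and scanned on whole mouse genome arrays, 3 from *Prss55*-/- and 3 from wt mice. The authors deposited the output of Agilent Feature Extraction (version 10.7 per the labels), whose processed signal is a linear intensity, background-subtracted within each array and not normalized between arrays. The authors also deposited a matrix of quantile-normalized log2 values, used here as an alternative. Control spots and outlier spots were left out, signals below 1 were set to 1, and log2 values were quantile-normalized over the 6 arrays. Spots of a probe were averaged. A probe entered the test if, in *Prss55*-/- or in wt, each of its spots was well above background on all 3 arrays, which held for 28606 probes of 19181 genes. Genotypes were compared by the two-sided moderated test of limma 3.58.1 (R 4.3.3; lmFit, eBayes), and p-values were adjusted after Benjamini and Hochberg. For a gene with several tested probes the brightest on average was taken. Single values were compared with exact permutation tests. p-values set the difference between genotypes against the spread between these 3 mice per genotype, which limma moderates over all tested probes. Precision is limited by the number of arrays.

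Earlier results of these data were known when the 10 genes, the 17 lists of pathway and cell type genes and the naming rule were chosen. Named were the 10 genes, fixed genes (*Prss55*, *Amh*, *Gata4*, *Clu*, *Gdnf*, *Ptch1*, *Gli1*, *Kit*, *Inhba*, *Fst*, *Tjp1*, *Tfrc*), list genes past the adjusted threshold or past p below 0.05 with 2-fold, and the 3 further Sertoli cell genes nearest in profile. *Rhox8*, *Sohlh1*, *Zbtb16*, *Insl3* and *Hbb-bs* had no probe matched by name, and *Adgre1* was matched by its older symbol. Probe sequences and positions are those of the array files (mm9), and promoter windows are RefSeq's (GRCm38.p6). Some items are not reported here. The fit was tested on simulated data. Tables and permutation tests were made in Python 3.11.15 with pandas 2.3.3 and numpy 2.4.6, and figures with matplotlib 3.10.9.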

Additional observations from a re-analysis of the deposited data

How the results depend on the processing

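The count of Sertoli cell genes past the adjusted threshold was 0 under every alternative, and the direction of each of the 10 genes was kept under all but *Sox9* (0.0041 with normexp, -0.079 to 0.012 with 1 array left out). The number with an unadjusted p below 0.05, 5 as reported, was 3 to 4 with 1 array left out (3 without *Prss55*-/- replicate 3) and 3 with the replicate block. *Dhh* passed without *Prss55*-/- replicate 2 or without wt replicate 2 or 3, *Kitl* without wt replicate 1, and *Trf* without *Prss55*-/- replicate 1. The median of the 10, -0.16, was -0.17 to -0.12 with 1 array left out. Averaging its probes moved *Kitl* to -0.27 and *Inhbb* to -0.04.

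List genes past the adjusted p, 1 as reported, were 2 with normexp (*Lhx9* and *Hsd3b1*), 0 with no filter, with the methods' t-test and with the replicate block, and 0 to 5 with 1 array left out. The 5 were *Cdh2*, *Slc11a2*, *Lhx9*, *Cyp11a1* and *Hsd3b1*, without *Prss55*-/- replicate 1. The sign turned for *Gdnf* (0.068), *Ptch1* (0.059) and *Kit* (0.0040) under 75th percentile scaling, *Gdnf* (0.0034) and *Tfrc* (-0.0085) under cyclic loess, and *Defb36* (0.0062) under normexp. With 1 array left out the differences spanned -0.14 to 0.066 for *Gdnf*, -0.079 to 0.041 for *Kit*, -0.16 to 0.056 for *Tjp1*, -0.0067 to 0.033 for *Tfrc* and -0.066 to 0.014 for *Sox8*.

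Over all probes, 346 passed the adjusted p as reported, 140 of 41174 without a filter, 87 in the methods' t-test, 287 with slide as a block and 13 with the replicate block, and 38 to 855 with 1 array left out (38 without *Prss55*-/- replicate 3, 855 without *Prss55*-/- replicate 1). Deviations of same-numbered arrays correlated at -0.05, -0.02 and -0.11, and no array correlated best with its own number. With 3 arrays per genotype this cannot settle whether the mice were paired, and a figure legend of the study describes them as 3 pairs. The main fit did not take the arrays as pairs, and the replicate block is the fit that pairs same-numbered arrays. Under the replicate block the adjusted p was 0.101 for *Prss55* and 0.192 for *Lhx9*. *Prss55* passed 0.05 neither there nor in the methods' t-test (0.0713), nor without *Prss55*-/- replicate 2 (0.0596), *Prss55*-/- replicate 3 (0.0698) or wt replicate 1 (0.0627). Under 75th percentile scaling the median of all probes was 0.02. The scale relative to *Sox9* and *Wt1* was chosen after seeing the data. Probes too dim to be tested, such as those of *Gli1* and *Amh*, allow no statement.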
